A study of Mus musculus with 16 samples.

Results

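Hox genes encode homeodomain transcription factors and lie in 4 clusters, HoxA to HoxD, on 4 chromosomes. In the mouse annotation used here 39 genes carry a Hox symbol of clusters A to D, and the table of mammary tumor RNA-seq values held 16 of them, taken as every row with such a symbol, among 23609 genes. The 16 were *Hoxa2*, *Hoxa3*, *Hoxa5*, *Hoxa7* and *Hoxa9*, *Hoxb2*, *Hoxb3*, *Hoxb4*, *Hoxb6* and *Hoxb7*, *Hoxc4*, *Hoxc5*, *Hoxc6* and *Hoxc8*, and *Hoxd4* and *Hoxd8*. The other 23 were not analysed here. Of the 16 genes, 11 had a mean value of at least 10 and entered the test across all genes, and *Hoxa2*, *Hoxa3*, *Hoxa5*, *Hoxa9* and *Hoxc4* did not.

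Both groups were primary mammary tumors of mice that carried the MMTV-PyMT transgene, in which the polyoma middle T antigen is driven by the mouse mammary tumor virus promoter, mainly in mammary epithelium. Wildtype tumors came from littermates with 2 intact copies of *Resf1*. Gene trap tumors came from compound animals labelled Resf1 +/-, which carry an enhancer/gene trap that cuts the transcript of 1 copy short near its start. The trap was delivered by a lentivirus and also makes an EGFP-Cre protein. The trap was carried on a B6(129S) background and crossed to FVB/MMTV-PyMT, and it is a single trapped line. The labels list 8 tumors per group, 5 wildtype and 5 gene trap tumors could be matched to columns by name, and the age of the animals is not given in the sources used here. The question put to these tumors was whether reduced *Resf1* changes expression, here for the Hox genes.

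In the embryo, Hox genes are switched on in the order in which they lie along the cluster, from the anterior end, numbered 1, to the posterior end, numbered 13, and they give body segments and limb regions their identity. Their proteins bind DNA together with cofactors of the Pbx, Meis and Pknox families. Polycomb complexes keep silent Hox genes silent, trithorax complexes keep active ones active, and retinoic acid acting through its nuclear receptors induces anterior members. In the adult, stromal cells and some epithelia retain a Hox pattern that reflects their place in the body, and several members take part in mammary gland development.

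The values were estimated counts per gene that the authors had already normalized between tumors, so the depth of each tumor is unknown and no counting interval can be given. Column totals over all genes ran from 31995100 to 42153600. *Resf1* was 4215, 4397, 3881, 4487 and 3517 in wildtype replicates 1 to 5 and 4029, 3066, 3686, 3392 and 3409 in gene trap replicates 1 to 5. The groups overlapped, and the log2 fold change was -0.22 ± 0.09 (standard error; limma unadjusted p = 0.0313, adjusted p = 0.9997; exact two-sided permutation test p = 0.0635). On the first principal component of all tested genes, gene trap replicate 2 was far from the rest, at 91.8 against -18.6 to -4.78. The 12 luminal epithelial markers, such as *Epcam* and *Krt8*, were all measured, and summed to between 95167 and 127496 per tumor. Whether each tumor came from a different animal is not stated, so p-values measure the spread between tumors.

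Levels of different Hox genes were compared per kilobase of exon, since longer transcripts give more reads. Among the 16 genes with values, levels were highest in *Hoxb2*, *Hoxb3*, *Hoxb4* and *Hoxd8*. Mean levels over the 10 tumors were 33.1 per kb ± 19.4 (SD, n = 10) for *Hoxb4*, 27.9 ± 20.2 for *Hoxb2*, 25.6 ± 6.98 for *Hoxd8* and 21.8 ± 15.1 for *Hoxb3*. Next came *Hoxb7* at 11.8 ± 4.31, *Hoxb6* at 8.64 ± 6.13, *Hoxc8* at 6.93 ± 1.88 and *Hoxc6* at 6.43 ± 2.69. Lower still were *Hoxa5* at 5.00 ± 4.44, *Hoxa7* at 4.91 ± 1.53, *Hoxc5* at 3.69 ± 1.75, *Hoxd4* at 3.40 ± 0.889 and *Hoxc4* at 2.60 ± 0.894 per kb. At the bottom, *Hoxa2* had 1.97 ± 0.969, *Hoxa9* 1.66 ± 1.04 and *Hoxa3* 1.12 ± 0.808 per kb. No 2 neighbours in this order differed by more than the larger of their SDs over tumors. That comparison ignores that all genes were measured in the same tumors. *Hoxb3* was above *Hoxb7*, and *Hoxd4* above *Hoxc4*, in 9 of the 10 tumors. *Hoxb2* was above *Hoxd8*, and *Hoxa5* above *Hoxa7*, in only 3 of 10, against the order of the means. The order of neighbours may differ in other tumors.

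**Figure D1:**
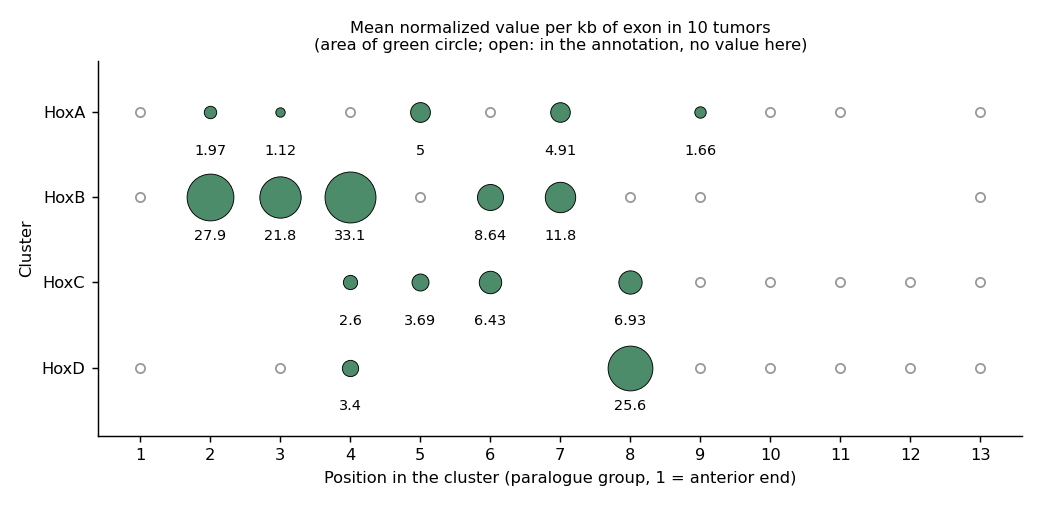
Hox genes by position in the cluster (horizontal axis) and cluster (vertical axis), with the area of each green circle and the number under it giving the mean normalized value per kb of exon over 10 tumors. The large circles are *Hoxb2*, *Hoxb3*, *Hoxb4* and *Hoxd8* at 21.8 to 33.1 per kb, and posterior genes other than *Hoxa9* are open circles without a value here.

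Of the summed value of the 16 genes (not per length), HoxB made up 63.8%, HoxD 16.5%, HoxC 10.9% and HoxA 8.84%. By position, the 4 measured anterior genes (positions 1 to 3) made up 41.2%, the 11 central genes (positions 4 to 8) 56.9%, and *Hoxa9*, the 1 posterior gene of positions 9 to 13 with values, 1.91%. Among all 23609 genes of the table the Hox genes were low. By mean value *Hoxb2* stood at the 39.9th percentile and *Hoxa2* at the 1.09th, with a median percentile of 16.1 for the 16 genes.

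Sequence just upstream of the start site was available from RefSeq for 9 of the 16 genes (GRCm38.p6, a different build from the mm39 used for the tumors), and not for *Hoxb2*, *Hoxb3*, *Hoxb6*, *Hoxb7*, *Hoxc5*, *Hoxc6* and *Hoxc8*. The 250 upstream bases are shown for the members with the highest level per kb in HoxA, HoxB and HoxD, to set the 2 clusters with the highest members beside HoxA, where levels were low. They lie at chr6:52204588-52204837 on the minus strand for *Hoxa5*, at chr11:96318017-96318266 on the plus strand for *Hoxb4* and at chr2:74704365-74704614 on the plus strand for *Hoxd8*. Capitals mark AGGTCA, the half-site bound by retinoic acid receptors and many other nuclear receptors, or its reverse complement TGACCT.
Hoxa5: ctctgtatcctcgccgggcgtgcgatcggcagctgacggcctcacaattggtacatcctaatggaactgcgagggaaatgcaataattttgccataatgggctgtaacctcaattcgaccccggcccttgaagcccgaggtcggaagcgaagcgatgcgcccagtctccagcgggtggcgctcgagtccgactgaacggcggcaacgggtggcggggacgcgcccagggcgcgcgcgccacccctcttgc
Hoxb4: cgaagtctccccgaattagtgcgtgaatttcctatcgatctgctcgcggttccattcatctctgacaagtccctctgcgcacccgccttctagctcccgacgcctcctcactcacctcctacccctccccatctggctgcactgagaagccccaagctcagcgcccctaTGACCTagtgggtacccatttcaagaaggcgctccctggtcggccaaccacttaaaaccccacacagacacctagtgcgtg
Hoxd8: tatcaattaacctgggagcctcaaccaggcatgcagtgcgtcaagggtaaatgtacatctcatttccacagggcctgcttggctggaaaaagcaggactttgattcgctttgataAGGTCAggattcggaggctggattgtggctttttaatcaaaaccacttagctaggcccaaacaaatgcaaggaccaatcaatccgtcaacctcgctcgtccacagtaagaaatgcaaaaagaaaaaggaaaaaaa
The half-site was present in *Hoxb4*, *Hoxc4*, *Hoxd4* and *Hoxd8*, 4 of the 9 sequences, and in 14% of all 32851 promoters over the same 250 bases. Of these, *Hoxc4* and *Hoxd4* had lower levels per kb (2.60 and 3.40) than *Hoxa5* and *Hoxa7* (5.00 and 4.91), which lacked it. A relation of the half-site to level was not tested. In *Hoxb4* the match began 81 bases before the start and in *Hoxd8* 135 bases before it, on opposite strands, and neither overlapped another motif searched. TGATTNAT, a composite Hox and Pbx site, was found in *Hoxa2* only among the 9 and in 2.82% of all promoters. The TATA box TATAAA was found in *Hoxd4* (12.4% of all promoters), the CCAAT box CCAAT in *Hoxa2*, *Hoxa5*, *Hoxd4* and *Hoxd8* (33.8%), and the GC box GGGCGG in *Hoxa9* and *Hoxc4* (32.7%), all on both strands. The *Hoxa5* stretch had 28 CG dinucleotides, a number reached by 7.61% of promoters, against 14 in *Hoxb4* and 6 in *Hoxd8*, where the median promoter had 6.

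*Hoxb2*, *Hoxb3* and *Hoxb4* had the widest ranges of normalized value of the 16 genes, and *Hoxb2* also the widest in fold. *Hoxb2*, which patterns the hindbrain, was 20.1, 147, 65.6, 56.3 and 111 in wildtype replicates 1 to 5 and 94.2, 59.6, 129, 31.8 and 261 in gene trap replicates 1 to 5. Its highest tumor, gene trap replicate 5, was 12.95 times its lowest, wildtype replicate 1. *Hoxb3*, a neighbour that is also used in the hindbrain and in blood progenitors, was 41.8, 117, 57.1, 59.2 and 118 in wildtype tumors and 74.0, 66.6, 109.8, 30.2 and 254 in gene trap tumors. It was highest in gene trap replicate 5 too, 8.40 times its lowest value. *Hoxb4*, a regulator of blood stem cell expansion, was 48.7, 128, 76.5, 40.3 and 97.2 in wildtype tumors and 76.3, 43.7, 97.5, 42.9 and 199.5 in gene trap tumors. Gene trap replicate 5 was again the highest, at 4.96 times the lowest tumor, and for all 3 genes the groups overlapped. Apart from that tumor, the gene trap values lay inside the wildtype range for *Hoxb2* and *Hoxb4*, and for *Hoxb3* gene trap replicate 4 lay below it.

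**Figure D2:**
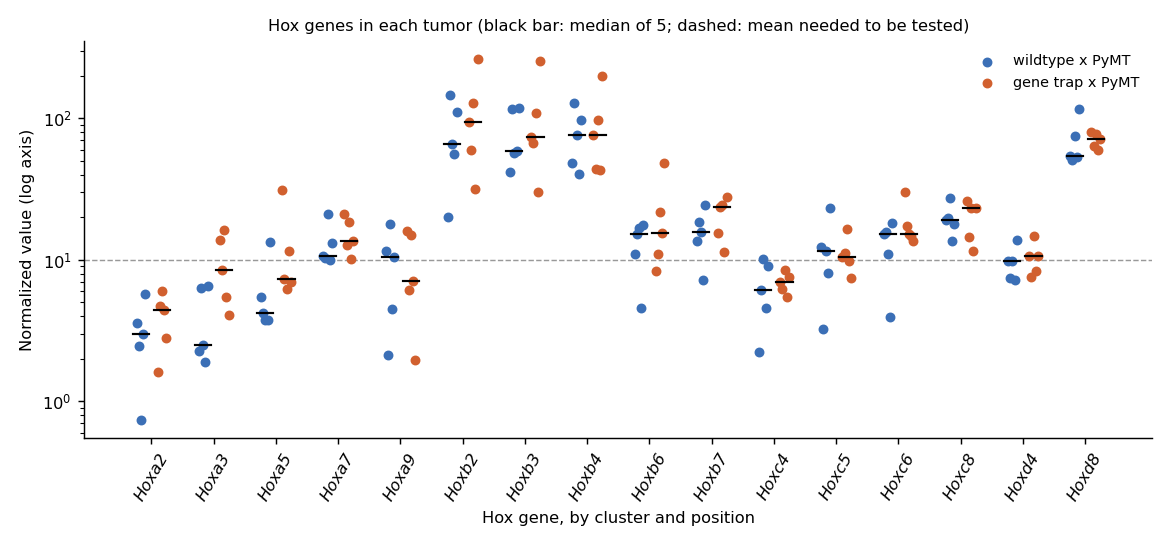
Normalized value (log axis) of each Hox gene in each of 5 wildtype x PyMT (blue) and 5 gene trap x PyMT (orange) tumors, with the median of 5 as a black bar and the mean of 10 needed for testing as a dashed line. The 2 groups overlap for every gene, and the widest vertical spread among the well expressed genes is that of *Hoxb2*, from 20.1 to 261.

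Further along the cluster, *Hoxb6*, a central member, was 11.1, 15.2, 16.7, 4.56 and 17.5 in wildtype tumors and 8.28, 10.97, 21.8, 15.5 and 48.2 in gene trap tumors. *Hoxb7*, a central member that has been studied in breast cancer cells, was 13.5, 18.6, 15.9, 7.16 and 24.4 in wildtype tumors and 15.6, 23.7, 24.4, 11.5 and 27.6 in gene trap tumors. Both were highest in gene trap replicate 5 and lowest in wildtype replicate 4. All 5 HoxB genes therefore had their highest value in gene trap replicate 5, where HoxB summed to 790 against 132 to 426 in the other 9 tumors. No HoxA, HoxC or HoxD gene was highest in that tumor.

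To set this spread against that of other genes, the residual SD within groups on the log2 scale was divided by the SD that limma's trend gives for a gene of that mean level. The ratio was 3.29 for *Hoxb2*, 2.72 for *Hoxb3* and 2.36 for *Hoxb4*, higher than in 97.9%, 96.2% and 94.3% of the tested genes. These 3 of the 11 tested Hox genes had a ratio of at least 2, as had 9.62% of all 21034 tested genes. The other 8 lay between 0.638 for *Hoxd4* and 1.67 for *Hoxb6*. *Hoxd8*, with a mean level per kb inside the range of the 3 HoxB genes, had a ratio of 1.07.

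Outside HoxB the values were steadier or lower. *Hoxd8*, a central HoxD gene, was 54.6, 51.1, 75.4, 53.1 and 116 in wildtype tumors and 79.8, 64.3, 78.1, 59.3 and 71.5 in gene trap tumors, a range of 2.26 fold with wildtype replicate 5 the highest. *Hoxd4*, a target of retinoic acid in the embryo, ranged from 7.25 to 14.8 over all tumors, but 52.3% of its exon bases are shared with *Hoxd3* and another transcript on the same strand, so its reads are uncertain. *Hoxc8*, a gene of the thoracic region, was 19.1, 19.8, 27.3, 13.7 and 18.0 in wildtype tumors and 26.1, 14.5, 23.1, 11.6 and 23.1 in gene trap tumors. *Hoxc6*, which is expressed in mammary tissue, was 15.2, 15.8, 10.97, 3.93 and 18.1 in wildtype tumors and 30.0, 17.4, 15.3, 14.6 and 13.7 in gene trap tumors. It was lowest in wildtype replicate 4 and highest in gene trap replicate 1. *Hoxc5* ranged from 3.25 to 23.2 and *Hoxc4* from 2.23 to 10.1.

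In HoxA, *Hoxa7* was 10.6, 10.4, 20.9, 9.91 and 13.2 in wildtype tumors and 20.96, 12.7, 18.5, 10.2 and 13.7 in gene trap tumors. *Hoxa5*, which takes part in lung and mammary development, was 5.50, 4.21, 3.77, 3.78 and 13.3 in wildtype tumors and 31.3, 7.28, 6.19, 11.5 and 6.96 in gene trap tumors. Wildtype replicate 5 and gene trap replicate 1 stood above the rest of their groups. *Hoxa3*, needed for the thymus and parathyroid, was 2.28, 6.29, 2.50, 1.88 and 6.58 in wildtype tumors and 13.8, 8.42, 16.2, 5.49 and 4.07 in gene trap tumors. Here 3 gene trap tumors lay above all wildtype tumors, and the other 2 lay within their range. *Hoxa9*, which is linked to leukemia, ranged from 1.96 to 17.9 and *Hoxa2*, which patterns the second pharyngeal arch, from 0.739 to 6.07. Of the 16 genes, 5 share exon bases on the same strand with another gene of the annotation (*Hoxa2*, *Hoxa3*, *Hoxa9*, *Hoxc5* and *Hoxd4*) and 5 have an antisense partner (*Hoxa3*, *Hoxa7*, *Hoxb2*, *Hoxb3* and *Hoxd4*), and whether the counting used strand is not given in the sources used here.

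Gene trap and wildtype tumors were then compared for each gene. No tested Hox gene passed the threshold of adjusted p under 0.05 (limma, Benjamini-Hochberg over all 21034 genes; smallest adjusted p = 0.9997), and 0% of all tested genes did. At an unadjusted p under 0.05 the count was 0 of 11 Hox genes, against 2.28% of all tested genes. The largest difference was that of *Hoxc6*, 0.56 ± 0.38 on the log2 scale (standard error; 95% interval -0.26 to 1.38; exact two-sided permutation test p = 0.246). *Hoxb6* had 0.50 (95% interval -0.51 to 1.52, exact permutation p = 0.389), *Hoxb2* 0.45 (-0.82 to 1.72, p = 0.532), *Hoxb7* 0.38 (-0.36 to 1.12, p = 0.341) and *Hoxa7* 0.22 (-0.39 to 0.83, p = 0.405). With 1 tumor left out these 5 moved by over 1.5 times: *Hoxc6* to 0.22 without wildtype replicate 4, *Hoxb6* to 0.15 without gene trap replicate 5, *Hoxb2* to 0.04 without wildtype replicate 1, *Hoxb7* to 0.14 without wildtype replicate 4 and *Hoxa7* to 0.10 without gene trap replicate 1. The remaining 6 lay between -0.02 for *Hoxc8* and 0.22 for *Hoxb3*. With 5 tumors against 5 the smallest p of the exact test is 0.00794. The groups overlapped for all 16 genes, while 0.528% of all tested genes had groups that did not overlap. For *Hoxd8*, the tested member with the narrowest interval, the 95% interval ran from -0.42 to 0.58 on the log2 scale, so differences inside it remain possible. It is not a detection limit, since a call needed an adjusted p under 0.05 over all 21034 genes. The other tested members had wider intervals, the widest that of *Hoxb2*.

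**Figure D3:**
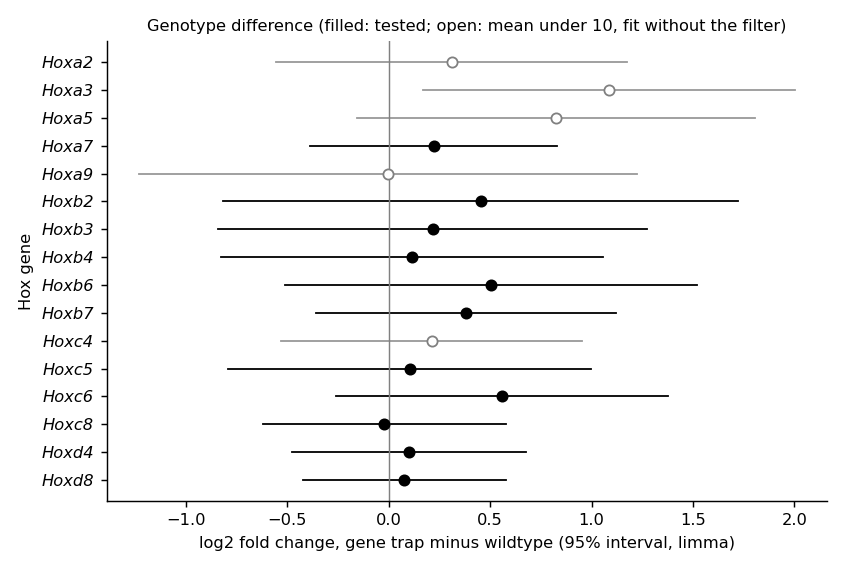
log2 fold change of gene trap over wildtype tumors (horizontal axis) with its 95% interval from limma for each Hox gene (vertical axis), filled for the 11 tested genes and open for the 5 genes with a mean under 10, which were fitted without the filter. The intervals of all 11 tested genes include 0, from *Hoxc8* at -0.02 to *Hoxc6* at 0.56.

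The median log2 fold change of the 11 tested Hox genes was 0.22, with 10 of 11 above 0, beside a median of 0.00 and 51.4% above 0 among all tested genes. Members of a cluster vary together, so the 11 values are not independent and no test is given. By cluster the median was 0.38 for 5 HoxB genes, all above 0, 0.22 for *Hoxa7* alone, 0.10 for 3 HoxC genes with 2 above 0, and 0.09 for 2 HoxD genes, both above 0. By position it was 0.34 for the 2 anterior genes and 0.12 for the 9 central genes, of which 8 were above 0. Without gene trap replicate 5, *Hoxb3* was at -0.18, *Hoxb4* at -0.22 and *Hoxb2* at 0.07. In that fit 10 of the 11 genes still had a mean of at least 10 (all but *Hoxd4*), and 7 of the 10 were above 0, with a median of 0.11.

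The 5 genes with means under 10 were fitted without the filter. For *Hoxa3* the log2 fold change was 1.09 ± 0.42 (standard error), with an unadjusted p of 0.0237 in limma, an adjusted p of 0.9998 and an exact permutation p of 0.0556. It was the 1 Hox gene of 16 with an unadjusted p under 0.05 in that fit, where 2.43% of all genes had one. *Hoxa5* had 0.82 (exact permutation p = 0.151), *Hoxa2* 0.31 (p = 0.468), *Hoxc4* 0.21 (p = 0.611) and *Hoxa9* 0.00 (p = 1). At these levels the pseudocount of 1 reduces fold changes, and 4 antisense transcripts overlap *Hoxa3*.

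Whether Hox genes rose and fell together from tumor to tumor was examined over the 10 tumors, a comparison chosen after the values were seen. The 55 pairs of tested Hox genes and the 5 pairs of a HoxB gene with *Hoxb3os*, a non-coding transcript antisense to *Hoxb2* and *Hoxb3*, were adjusted together. The 3 neighbours *Hoxb2*, *Hoxb3* and *Hoxb4* followed each other most closely. Pearson's r of the log2 values was 0.94 for *Hoxb2* and *Hoxb3* (Spearman's rho 0.92, permutation p = 0.00014 for r and 0.00065 for rho, adjusted p = 0.0084 and 0.0208). It was 0.90 for *Hoxb3* and *Hoxb4* (rho 0.79, permutation p = 0.00052 and 0.00911, adjusted p = 0.0156 and 0.0497). For *Hoxb2* and *Hoxb4* it was 0.88 (rho 0.90, permutation p = 0.0009 and 0.0009, adjusted p = 0.0157 and 0.0208).

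Leaving out the 2 tumors farthest from the median of the first gene gave r of 0.96, 0.80 and 0.90 for the 3 pairs, so the relation did not rest on those tumors (permutation p = 0.00065, 0.0191 and 0.00231, n = 8). Within genotypes, with each group centred on its mean, r was 0.94, 0.90 and 0.89. Without any 1 tumor, r stayed between 0.82 and 0.98. Among the 21033 other tested genes, *Hoxb3* was the gene most correlated with *Hoxb2*, and *Hoxb2* the most correlated with *Hoxb3*. *Hoxb4* was the third for both. *Xlr3b* was the gene most correlated with *Hoxb4*, and there *Hoxb3* was the third and *Hoxb2* the sixth.

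**Figure D4:**
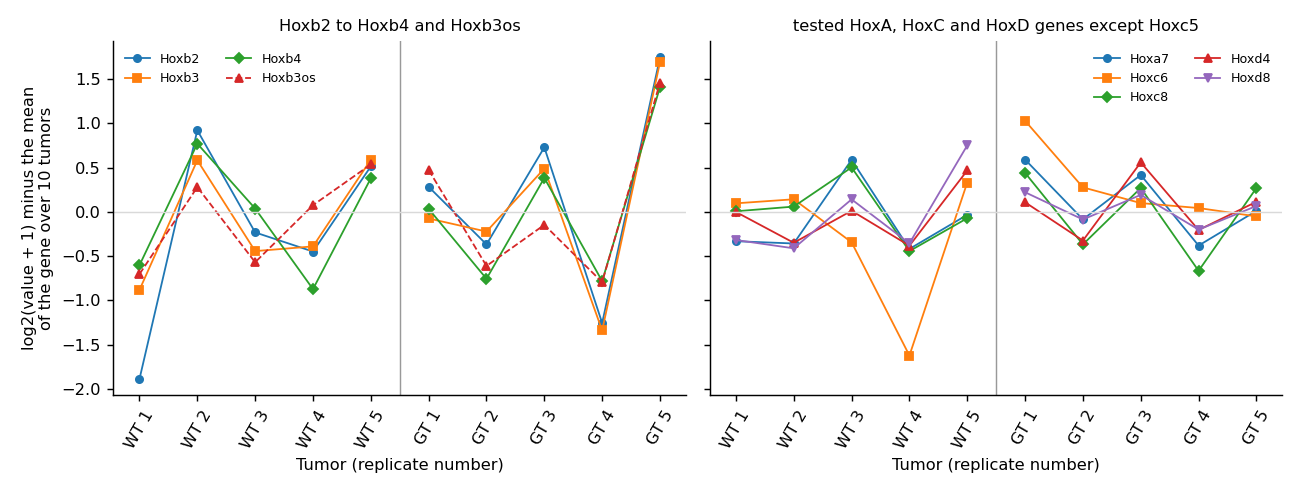
log2(value + 1) minus the gene's mean over 10 tumors (vertical axis) in each wildtype (WT) and gene trap (GT) tumor (horizontal axis, replicate numbers; replicates have no order), for *Hoxb2*, *Hoxb3*, *Hoxb4* and *Hoxb3os* on the left and *Hoxa7*, *Hoxc6*, *Hoxc8*, *Hoxd4* and *Hoxd8* on the right. On the left the lines peak together in gene trap replicate 5, while on the right no line peaks there.

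*Hoxb3os* was 12.5, 25.7, 13.8, 22.1 and 30.8 in wildtype tumors and 29.5, 13.4, 18.8, 11.7 and 59.4 in gene trap tumors, with the same highest tumor. Its r was 0.88 with *Hoxb3* (rho 0.89, adjusted permutation p = 0.0157 and 0.0208), 0.84 with *Hoxb2* (rho 0.79, adjusted permutation p = 0.0293 and 0.0497) and 0.79 with *Hoxb4* (rho 0.64, adjusted permutation p = 0.0484 and 0.184). Without the 2 farthest tumors these were 0.69, 0.72 and 0.78 (permutation p = 0.0664, 0.0452 and 0.0335, n = 8). Because *Hoxb3os* overlaps *Hoxb2* and *Hoxb3*, its reads cannot be told apart from theirs if the counting ignored strand. *Hoxb4* has no overlapping partner in the annotation. *Skap1*, the 1 tested gene among those listed as flanking HoxB, had r of 0.14 with *Hoxb2*, 0.26 with *Hoxb3* and 0.31 with *Hoxb4* (rho 0.16, 0.20 and 0.38; adjusted permutation p = 0.697 for each r and 0.658 for each rho, over 3 relations). Without the 2 farthest tumors r was 0.81, 0.24 and 0.47.

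Of the 55 pairs of Hox genes, 52 had a positive r and 6 passed an adjusted permutation p under 0.05. The same shares over pairs of all tested genes were not computed, so these counts cannot be read as particular to Hox genes. The median r was 0.70 over the 14 pairs within a cluster and 0.39 over the 41 pairs between clusters. Beside the 3 pairs among *Hoxb2*, *Hoxb3* and *Hoxb4*, *Hoxb4* and *Hoxb6* had r of 0.78 (rho 0.73, adjusted permutation p = 0.0484 and 0.0881), which fell to 0.44 without the 2 farthest tumors and rested on them. *Hoxd4* and *Hoxd8* had r of 0.81 (rho 0.85, adjusted permutation p = 0.0366 and 0.0336), and 0.74 without the 2 farthest tumors (permutation p = 0.0521, n = 8). *Hoxa7* and *Hoxc8*, from different clusters, had r of 0.80 (rho 0.87, adjusted permutation p = 0.0484 and 0.0336), and 0.63 without the 2 farthest (permutation p = 0.0922, n = 8), so neither passed without them. *Hoxc5* had negative r with *Hoxb2*, *Hoxb3* and *Hoxb4*, of -0.21, -0.13 and -0.20. By r among the 21033 other tested genes, *Hoxd8* ranked 90 for *Hoxd4* and *Hoxd4* ranked 88 for *Hoxd8*. *Hoxc8* ranked 46 for *Hoxa7*, *Hoxa7* ranked 43 for *Hoxc8* and *Hoxb4* ranked 29 for *Hoxb6*.

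**Figure D5:**
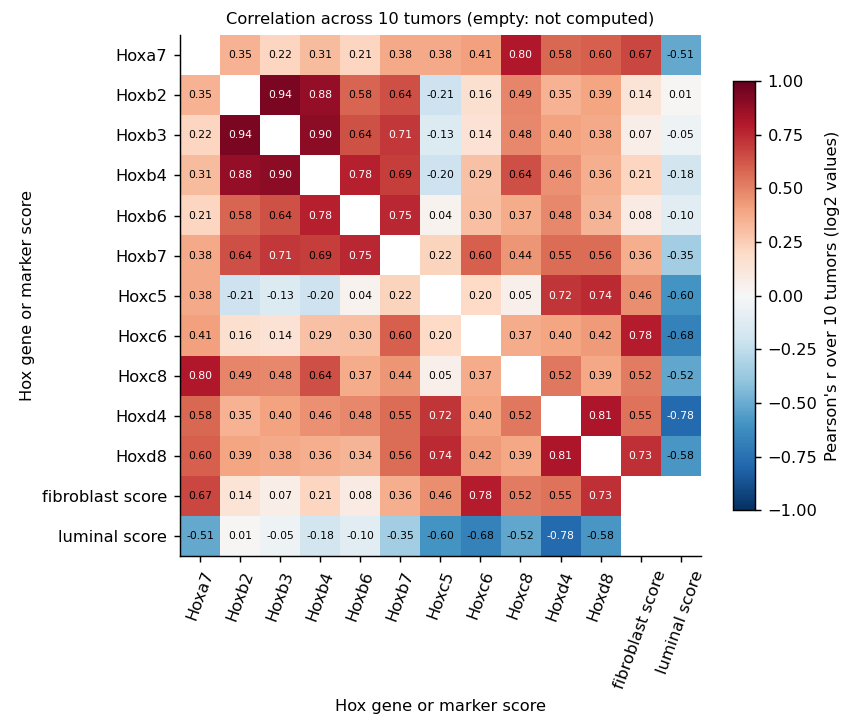
Pearson's r over 10 tumors between the log2 values of the 11 tested Hox genes, and between each of them and the fibroblast and luminal marker scores (both axes). The darkest block is *Hoxb2*, *Hoxb3* and *Hoxb4* at 0.88 to 0.94. Over all 10 tumors the score columns lie between -0.18 and 0.21 for these genes and are strongest for *Hoxc6*, *Hoxd4* and *Hoxd8*.

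Tumor RNA is a mixture, and in such bulk samples fewer cells of a type and less RNA per cell cannot be told apart. Each tested Hox gene was therefore set against a fibroblast score and a luminal epithelial score, each the mean z score of 12 markers. The fibroblast score was highest in gene trap replicate 1 at 1.73 and in wildtype replicate 5 at 1.08, and lowest in wildtype replicate 4 at -1.43. All 11 Hox genes had a positive r with it and 10 of 11 a negative r with the luminal score, but none of the 22 relations passed an adjusted permutation p under 0.05 (smallest 0.0925), for either r or rho. The shares of all tested genes with these signs were not computed, so the counts cannot be read as particular to Hox genes. Several HoxB signs turned under quantile normalization or without wildtype replicate 4, as given below. With the fibroblast score r was 0.78 for *Hoxc6* (rho 0.56, permutation p = 0.0126 and 0.0956), 0.73 for *Hoxd8* (rho 0.85, permutation p = 0.0194 and 0.00309) and 0.67 for *Hoxa7* (rho 0.78, permutation p = 0.0303 and 0.0108). Their adjusted permutation p values were 0.0925, 0.107 and 0.133 for r and 0.191, 0.068 and 0.118 for rho. Without gene trap replicate 1 and wildtype replicate 5, these r were 0.70, 0.61 and 0.68.

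With the luminal score *Hoxd4* had r of -0.78 (rho -0.70, adjusted permutation p = 0.0925 and 0.153) and *Hoxc6* had -0.68 (rho -0.58, adjusted permutation p = 0.0925 and 0.191), or -0.76 and -0.59 without the 2 farthest tumors. *Hoxb2*, *Hoxb3* and *Hoxb4* had r of 0.14, 0.07 and 0.21 with the fibroblast score (rho 0.02, 0.03 and 0.13, adjusted permutation p of 0.816 to 0.928 for r) and of 0.01, -0.05 and -0.18 with the luminal score (rho -0.20, -0.15 and -0.36, adjusted permutation p of 0.836 to 0.98 for r). In gene trap replicate 5, where the HoxB genes were highest, the fibroblast score was -0.41. Without that tumor, r with the fibroblast score was 0.29, 0.25 and 0.43 for *Hoxb2*, *Hoxb3* and *Hoxb4*. With the luminal score it was then -0.15, -0.31 and -0.46 (adjusted permutation p of 0.322 to 0.679 for both scores). Without wildtype replicate 4 the fibroblast r were 0.06, -0.03 and -0.03 and the luminal r 0.11, 0.04 and 0.04. Scores of 6 other cell types, for endothelium, macrophages, lymphocytes, myoepithelium, adipocytes and skeletal muscle, were added after the data were seen, and none of their 66 relations passed (smallest adjusted permutation p = 0.646 for r). For *Hoxb2*, *Hoxb3* and *Hoxb4* these r lay between -0.41 with the adipocyte and 0.48 with the endothelial score.

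The genes for the partners of Hox proteins were compared between the groups as well. *Meis1*, a cofactor that binds DNA with Hox proteins, was 1524 ± 525 in wildtype and 1947 ± 515 in gene trap tumors (SD, n = 5 each), with a log2 fold change of 0.38 (exact permutation p = 0.246). *Meis2*, of the same family, was 74.7, 67.2, 62.8, 71.0 and 62.6 in wildtype tumors and 251.5, 76.0, 200.03, 70.2 and 92.2 in gene trap tumors. Gene trap replicates 1 and 3 were far above the wildtype range, replicate 5 above it by less, replicate 2 just above it, and replicate 4 within it. Its log2 fold change was 0.82 ± 0.33 (standard error; limma unadjusted p = 0.0286, adjusted p = 0.9997; exact permutation p = 0.0238). It was 0.56 without gene trap replicate 1 and 0.64 without gene trap replicate 3, where the unadjusted limma p was 0.0713 and 0.0789. Of the 8 tested cofactors *Meis2* was the 1 with an unadjusted p under 0.05, beside 2.28% of all tested genes, and the median of the list was 0.04.

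None of the other lists of Hox regulators held a gene with an unadjusted limma p under 0.05, which 2.28% of all tested genes had. In lists of this size a count of 0 is close to that share. All 24 Polycomb genes were tested, with a median log2 fold change of 0.03, and *Ezh2*, the methyltransferase that places the repressive mark, was 1503 ± 62.2 in wildtype and 1506 ± 187 in gene trap tumors (SD, n = 5 each). All 13 trithorax genes were tested too, with a median of 0.03, and *Kmt2a*, the methyltransferase that maintains active Hox genes, was 3337 ± 302 and 3430 ± 547 (SD, n = 5 each). The 13 tested genes of retinoic acid synthesis, signalling and breakdown and the Cdx factors had a median of 0.08 (18 listed), and 9 of 15 genes beside the clusters had a median of -0.01. Of 18 non-coding transcripts and microRNAs of the clusters 2 were measured, *Hoxb3os* with a log2 fold change of 0.15 and *Hotairm1*, which lies beside *Hoxa2* and was at 0.878 to 7.54 over all tumors.

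The marker lists of other cell types were read for the genotype comparison as well. The summed fibroblast markers ran from 55221 to 124206 in wildtype and from 77410 to 163990 in gene trap tumors, with 11 of 12 log2 fold changes above 0 (median 0.11) and none with an unadjusted limma p under 0.05. Of 9 myoepithelial markers *Krt17* (log2 fold change -0.63) and *Myh11* (-0.67) had an unadjusted p under 0.05 in limma, where 2.28% of all tested genes had one, and 0 of 9 log2 fold changes were above 0 (median -0.36). Summed, the list ran from 8330 to 11447 in wildtype and from 6112 to 8569 in gene trap tumors. The part of these differences in the Hox values was not tested. No gene of the luminal, endothelial, macrophage, lymphocyte, adipocyte, skeletal muscle and keratinocyte lists had an unadjusted p under 0.05, with list medians of -0.01, -0.08, -0.08, -0.14, -0.48, 0.02 and 0.10.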

How the data were processed

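Total RNA was isolated from mammary tumors with Trizol and sequenced from TruSeq Stranded Total RNA libraries. The submitters' processing notes name STAR (version 2.7.8a) in Partek, DESeq2 and genome build mm39. The counter and annotation for the mouse tumors are not given in the sources used here. The authors deposited a signal per gene, estimated counts scaled across tumors by median ratios, with 0 zeros and fractional values, so depth is unknown and a count-based test could not be used. Of 16 columns, 10 carried the name of 1 tumor in the labels, and 6 others were not used.

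Gene symbols were found for 22899 of 23609 IDs (97.0%). Exon lengths, overlaps and the list of 39 Hox genes came from GENCODE mouse release 21 (GRCm38), and promoters from RefSeq (GRCm38.p6). Level per kb is the value divided by the union of exons. Values were analysed as log2(value + 1), which understates fold changes of low genes. Genes with a mean of at least 10 entered a limma fit (R 4.3.3, limma version 3.58.1), with genotype as the only factor, a mean-variance trend and Benjamini-Hochberg adjustment. Single genes had an exact two-sided permutation test over all 252 arrangements. Correlations had two-sided permutation p values from 100000 resamples (Python 3.11.15, scipy 1.17.1), where the smallest p is 1e-05. Marker scores are mean z scores. The calculations were tested on simulated data.

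Values in every tumor are given for *Resf1*, the highest member per kb of each cluster, the 5 tested Hox genes with the largest log2 fold change, and any Hox gene with an unadjusted p under 0.05 or with groups that do not overlap. From other lists, genes with an unadjusted p under 0.05 and *Meis1*, *Ezh2* and *Kmt2a* are named, and 1 further gene of that rule is not reported here. *Hoxb3*, *Hoxa3*, *Hoxb3os*, *Skap1*, *Hotairm1* and *Xlr3b* were added after their values were seen. The Hox genes as a topic and the lists were chosen with earlier results of these data known, while each member entered by its symbol. Figures were drawn with matplotlib 3.10.9.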

Additional observations from a re-analysis of the deposited data

Results flagged for a closer look

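In 4 of 50 groups of 5 tumors examined (25 genes and scores in 2 genotypes), 1 tumor lay far from the other 4, with a gap over 0.71 of the range of the group. For independent and normally distributed values chance gives about 1 in 20, or 2.5 here. The groups share tumors and hold genes that vary together, so that number is only a guide. *Hoxa5* was 13.3 in wildtype replicate 5, where the rest of the group lay between 3.77 and 5.50. It was 31.3 in gene trap replicate 1, and 6.19 to 11.5 in the remaining 4. *Hoxc6* in that tumor was 30.0 and elsewhere in the group 13.7 to 17.4. The fibroblast score there was 1.73, and -0.41 to -0.15 in the remaining 4. The tumors in which *Hoxa5* stood apart were the 2 with the highest fibroblast scores. The part of the fibroblast content in these values was not tested.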

How the results depend on the processing

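Under 17 alternatives the number of Hox genes with an adjusted p under 0.05 was 0 each time in limma. The number with an unadjusted p under 0.05 was 0 in all of them except 1, *Hoxa3*, without the filter on low values. The direction of the log2 fold change was that reported in 165 of 176 fits of single Hox genes, and the 11 that turned all came from leaving out 1 tumor. With 1 tumor left out at a time, the log2 fold change ranged from -0.18 to 0.58 for *Hoxb3*, -0.22 to 0.33 for *Hoxb4*, 0.04 to 0.82 for *Hoxb2*, 0.15 to 0.75 for *Hoxb6*, 0.14 to 0.56 for *Hoxb7*, 0.10 to 0.40 for *Hoxa7*, 0.22 to 0.71 for *Hoxc6*, -0.24 to 0.39 for *Hoxc5*, -0.13 to 0.14 for *Hoxc8* and -0.016 to 0.27 for *Hoxd8*, and the median of the Hox genes tested each time lay between 0.11 (without wildtype replicate 1) and 0.39 (without wildtype replicate 5). The number of Hox relations with a marker score that passed ranged from 0 to 1. After quantile normalization the luminal r of *Hoxb2*, *Hoxb3*, *Hoxb4* and *Hoxb6* were 0.21, 0.20, 0.05 and 0.11, and that of *Hoxd4* was -0.49. Without wildtype replicate 4, *Hoxb6* and *Hoxb7* had fibroblast r of -0.44 and -0.09 and luminal r of 0.33 and 0.04. In both settings the signs of *Hoxa7* and of the tested HoxC and HoxD genes were unchanged. Without wildtype replicate 3 *Hoxa5* reached a mean of 10 and passed with r of 0.90 to the fibroblast score. It also entered without wildtype replicate 4, where r was 0.77 and did not pass (adjusted permutation p = 0.307). Both fits kept gene trap replicate 1, which had the highest *Hoxa5* value, 31.3, and the highest fibroblast score. Without wildtype replicate 5 *Hoxa7* passed with r of 0.76 to the fibroblast score. The number of genes of the 6 lists of Hox partners, regulators and neighbours with an unadjusted p under 0.05 ranged from 0 to 4, and was 0 without gene trap replicate 1, gene trap replicate 3, wildtype replicate 3 or wildtype replicate 5, 2 without gene trap replicate 4 and 4 without wildtype replicate 1. The cause was not tested. The log2 fold change of *Resf1* ranged from -0.28 to -0.17.

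Over all tested genes, replicate numbers did not pair the tumors. The correlation of deviations between same-numbered tumors was 0.10, -0.00, -0.16, 0.15 and -0.14. With the replicate number as a block, the median log2 fold change of the tested Hox genes was 0.22, with 0 Hox genes at an unadjusted p under 0.05, and the block changed no other call. The block lowered the standard errors of the HoxB genes, for *Hoxb7* from 0.34 to 0.23 and for *Hoxb3* from 0.49 to 0.35. For *Hoxc5* it rose from 0.41 to 0.42. Whether HoxB levels follow the replicate numbers was not tested. Per kb of the longest transcript in place of the union of exons, *Hoxb4* was again highest at 33.1, *Hoxb3* at 29.1 passed *Hoxd8* at 26.7, and *Hoxa2* became the lowest at 1.97. Levels of 5 genes moved by more than their SD over tumors, *Hoxa3* from 1.12 to 2.61, *Hoxa9* from 1.66 to 2.88, *Hoxc6* from 6.43 to 9.80, *Hoxa7* from 4.91 to 6.95 and *Hoxc8* from 6.93 to 8.83. The highest member of HoxA was then *Hoxa7* in place of *Hoxa5* (5.00), and that of HoxC was *Hoxc6* in place of *Hoxc8*. Expression was too low for a test in 5 of the 16 genes, and the depth is unknown.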
